A study of Mus musculus with 12 samples.

Results

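The genes described here encode glycosyltransferases, with 1 sulfotransferase among them, and were chosen by symbol among the genes compared for RNA polymerase II (Pol II) occupancy in the mouse duodenal epithelium. A gene was taken when its symbol began with St3gal, St6gal, St8sia, B3g, B4gal, Galnt, Gcnt, Chst or C1galt, or with Fut or Alg and a digit, or with Mgat and a digit from 1 to 5. Of the 6429 genes compared, 41 met this rule, and all 41 were in both tables. In RefSeq, 125 symbols meet it, and the other genes, among them Fut2, Fut8, St6gal1 and C1galt1c1, were not analysed here. The symbols gave 3 sialyltransferases, 2 fucosyltransferases, 8 B3g and 10 B4gal enzymes, 4 Galnt enzymes, 1 core 1 enzyme, 4 Gcnt enzymes, 6 Mgat enzymes, 1 sulfotransferase and 2 Alg enzymes. The Galnt, core 1 and Gcnt families, a minority of the genes, start, extend and branch mucin-type O-glycans, though Gcnt2 makes the branched I antigen. Some genes of the other families, such as B3gnt3 and St6galnac2, act on O-glycans too. Others act on N-glycans, on glycolipids or on proteoglycans, so the families do not divide the genes by type of glycan.

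Pol II was mapped by chromatin immunoprecipitation and sequencing (ChIP-seq) in 3 libraries each from wild-type (WT) villus, WT crypt and from villus of Hnf4a and Hnf4g double knockout (DKO) mice, and 3 input libraries complete the 12 samples. The DKO mice were given tamoxifen by intraperitoneal injection at 50 mg/kg on each of 2 days and were killed 1 day after the second injection, and the WT mice were given the ethanol and corn oil vehicle alone. Epithelium was released from the duodenum of adult mice with EDTA, for 25 minutes in mutant and 35 minutes in WT mice, and a 70 µm filter held back the villi and passed the crypts. Genotype, tamoxifen and EDTA time cannot be told apart between the WT and DKO groups, and the alleles, the Cre driver, the strain and the sex are not given in the sources used here. Nothing in the labels says whether libraries of a group came from separate mice, so the p-values measure the spread between these libraries, which may be technical.

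Proteins that leave the cell through the secretory pathway receive sugars in the endoplasmic reticulum and the Golgi. N-glycans are built as a whole on a dolichol lipid by Alg enzymes, transferred to asparagine, and then trimmed and branched by Mgat enzymes. Mucin-type O-glycans start with a GalNAc placed on serine or threonine by Galnt enzymes and are extended to core 1 by C1galt1 and branched by Gcnt enzymes. B3g and B4gal enzymes lengthen the chains, and sialic acid and fucose are added near their ends. In the small intestine these glycans coat the brush border of enterocytes and are carried by the mucins that goblet cells secrete. They are also known as attachment sites for gut microbes.

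The promoters of 4 genes are shown to give the sequence before the annotated start of genes that lie on opposite sides of the comparison of genotypes. Whether Pol II starts at these sites in this tissue was not tested. St3gal4, B4galt5 and B3gnt3 had less Pol II in the villi labelled DKO, and C1galt1 had more. Each sequence is the 250 bases before the RefSeq transcript start in the GRCm38.p6 build, read 5′ to 3′ on the strand of the gene, at chr9:35116865-35117114 (minus strand) for St3gal4, chr2:167349179-167349428 (minus strand) for B4galt5, chr6:7844974-7845223 (plus strand) for C1galt1 and chr8:71701801-71702050 (minus strand) for B3gnt3. Capitals mark a match to the HNF4 motif CAAAGTCCA.
St3gal4: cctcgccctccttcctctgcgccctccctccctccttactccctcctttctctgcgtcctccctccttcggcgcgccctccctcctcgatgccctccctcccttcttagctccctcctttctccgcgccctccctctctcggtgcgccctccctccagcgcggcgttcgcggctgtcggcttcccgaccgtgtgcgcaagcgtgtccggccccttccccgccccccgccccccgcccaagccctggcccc
B4galt5: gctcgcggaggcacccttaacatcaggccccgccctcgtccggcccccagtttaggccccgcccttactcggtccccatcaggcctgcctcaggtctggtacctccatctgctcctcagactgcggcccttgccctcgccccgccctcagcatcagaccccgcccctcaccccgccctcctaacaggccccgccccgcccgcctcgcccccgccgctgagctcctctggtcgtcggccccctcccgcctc
C1galt1: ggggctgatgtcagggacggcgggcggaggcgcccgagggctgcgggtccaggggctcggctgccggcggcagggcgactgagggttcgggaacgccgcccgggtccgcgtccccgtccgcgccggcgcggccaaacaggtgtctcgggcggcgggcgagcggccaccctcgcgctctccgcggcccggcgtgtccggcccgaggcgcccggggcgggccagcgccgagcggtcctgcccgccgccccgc
B3gnt3: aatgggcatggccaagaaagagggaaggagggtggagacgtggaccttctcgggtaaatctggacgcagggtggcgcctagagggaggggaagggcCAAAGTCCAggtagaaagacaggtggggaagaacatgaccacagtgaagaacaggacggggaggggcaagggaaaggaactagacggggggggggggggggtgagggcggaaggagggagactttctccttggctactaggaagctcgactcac
In RefSeq 32 of the 41 genes had a promoter entry, with 41 entries in all because some genes have several starts. The 9 genes with no entry, among them Gcnt3, Mgat3 and Galnt4, were not searched for the letters below. The letters CAAAGTCCA, the preferred motif of HNF4, stood on either strand in 1 of these 41 entries, that of B3gnt3, beginning 154 bases before the start, and in 0.384% of all 32851 promoters of the same length. A looser form, CAAAGNNCA, which includes the first, stood in that 1 entry too and in 5.49% of all promoters. The TATA box letters TATAAA stood in 0 of the 41 entries and in 12.4% of all promoters. The median GC content was 60.8% over the 41 entries and 52.4% over all promoters, and of the sequences shown that of C1galt1 had the most GC, at 82.8%, with 72.8% for St3gal4, 73.2% for B4galt5 and 60% for B3gnt3. A match to these letters is a description of the sequence and not a measured binding site. The positions given below are in mm9, the build of the deposited windows per the submitters' processing notes, and were not converted.

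The values are those of tables deposited by the authors, which give for each gene a mean Pol II signal over all libraries in size-factor-scaled counts, and a log2 fold change with its standard error (SE, printed after ±) and a DESeq2 adjusted p-value. Genes with an adjusted p under 0.05 are said to be called, and a positive log2 fold change means more signal in WT villus. Values per library could be tied to no sample by name, so the level in each group was rebuilt from the mean signal and the 2 fold changes, with groups taken to be of equal size, and has no error of its own. These rebuilt means compare groups within a gene and not genes with each other, because they are not divided by the length counted. The 41 genes had mean signals from 20.8 (B3gnt8) to 1781 (Mgat5), with a median of 164 beside 144 over all 6429 genes. The authors' filter on low signal is not stated, and the depth of each library is unknown from the tables.

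Both targeted genes were among those compared. In the authors' deposited table Hnf4a had a WT over DKO-labelled log2 fold change of -0.54 ± 0.14 and Hnf4g one of -1.45 ± 0.22, so Pol II signal at both was higher in the villi labelled DKO, and those villi are called DKO-labelled throughout. The Hnf4a windows overlap the antisense gene Hnf4aos, which went the other way, at 0.65 ± 0.09 in the authors' deposited table. Which part of either targeted gene is deleted is not given in the sources used here. Signal over these genes therefore does not test the label. The tissue carried its defining markers: 11 of 12 enterocyte genes were in the tables, and the authors' deposited tables called all 11 higher in WT villus than crypt, with a median log2 fold change of 1.55, and all 11 higher in WT than DKO-labelled villus, with a median of 2.44. Their summed rebuilt signal was 17670 in WT villus, 6553 in crypt and 5080 in DKO-labelled villus. Of 9 genes of stem and dividing cells 2 were in the tables, Axin2 and Pcna, and both were called higher in crypt than WT villus, at -0.49 ± 0.17 and -0.95 ± 0.20 in the authors' deposited table. For WT over DKO-labelled villus the authors' deposited table gave -0.62 ± 0.20 for Pcna (adjusted p = 0.00568), which was called, and -0.38 ± 0.17 for Axin2 (adjusted p = 0.0531), which was not; their part in the changes between the genotypes was not tested. Of 8 immune genes 1 was in the tables, Cd74, which was higher in WT villus in both tables, and the 8 mesenchyme genes were not analysed here. In all of these tissue preparations, a difference in signal between groups cannot be told apart from a difference in the share of cells that carry it.

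Between WT villus and WT crypt, which asks how Pol II is placed along the crypt-villus axis, most of the 41 genes were not told apart. The authors' deposited table called 9 of the 41 genes (22%), beside 37.4% of all genes. Of these, 6 had more signal in villus, where 18.6% of all genes were called, and 3 had more in crypt, where 18.8% were. The median log2 fold change was 0.01 over the 41 genes and -0.04 over all genes, and the median of the absolute changes was 0.14 beside 0.24. The difference between these medians was given no test.

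**Figure D1:**
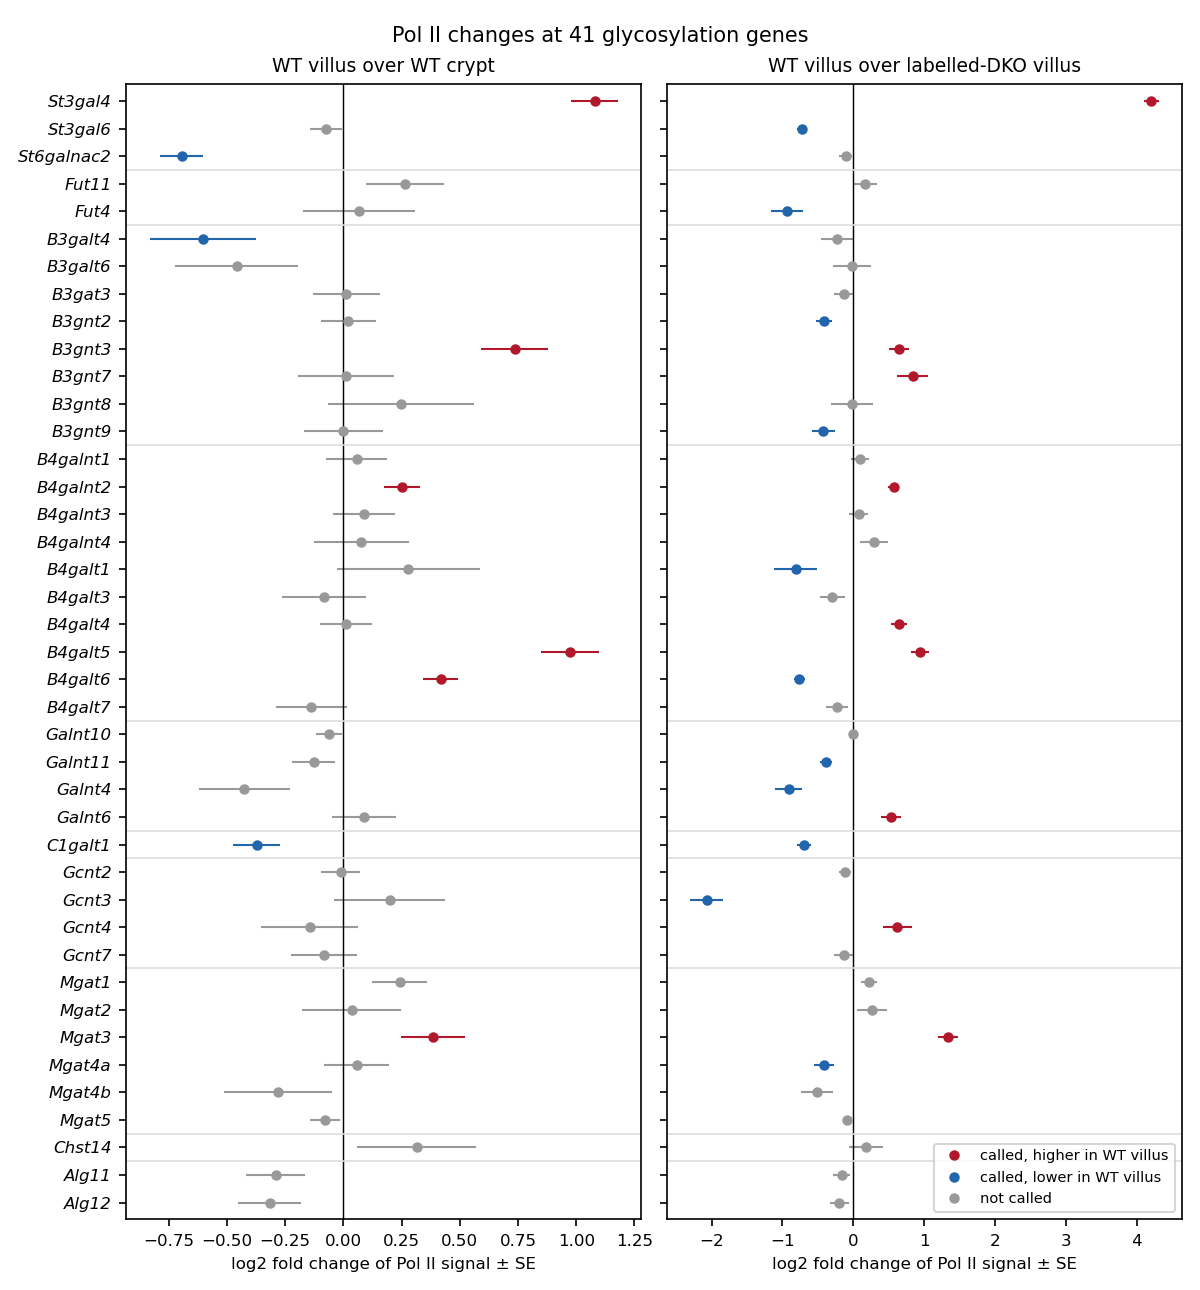
Log2 fold changes of Pol II signal with their standard errors for the 41 genes, in rows grouped by enzyme family, with WT villus over crypt on the left and WT over DKO-labelled villus on the right; the 2 horizontal axes differ in scale. Red and blue points are called higher and lower in WT villus, 6 and 3 genes on the left and 9 and 11 on the right. St3gal4 lies farthest right in both panels, near B4galt5 on the left and apart from the other genes on the right.

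The largest rise from crypt to villus was at St3gal4, which adds sialic acid to galactose at chain ends. Its rebuilt mean was 1394 in crypt and 2945 in villus, and the authors' deposited table gave a log2 fold change of 1.08 ± 0.10 with a DESeq2 adjusted p = 1.04e-24, so villus was 2.11-fold higher. B4galt5, a lactosylceramide synthase at the root of most glycolipids, went from 434 in crypt to 852 in villus, with 0.97 ± 0.12 (adjusted p = 2.72e-13) in the authors' deposited table. B3gnt3, which lengthens core 1 O-glycans, went from 129 to 214, with 0.73 ± 0.14 and adjusted p = 3.00e-06 in the same authors' deposited table. St3gal4 and B4galt5 differed in their change by less than the sum of their standard errors, and both still passed when the Wald test asked for a log2 change above 0.5, while the other 7 called genes did not pass.

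Smaller rises were called at 3 more genes. B4galt6, the second lactosylceramide synthase, rose from 461 to 615 with a log2 fold change of 0.42 ± 0.08 in the authors' deposited table. Mgat3, which adds the bisecting GlcNAc to N-glycans, rose from 312 to 407 with 0.38 ± 0.14 (adjusted p = 0.0172) in the authors' deposited table. B4galnt2, which makes the Sda blood group antigen of the intestine, rose from 714 to 850 with 0.25 ± 0.08 (adjusted p = 0.00565) in the authors' deposited table. The smallest of these rises was 1.19-fold.

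The 3 genes with more Pol II in crypt act on different acceptors. St6galnac2, which puts sialic acid on the GalNAc at the base of O-glycans, had a rebuilt mean of 236 in crypt and 146 in villus, with a log2 fold change of -0.69 ± 0.09 (adjusted p = 3.18e-12) in the authors' deposited table. B3galt4, a ganglioside galactosyltransferase, had 218 in crypt and 143 in villus, with -0.61 ± 0.23 (adjusted p = 0.0247) in the authors' deposited table. Its windows overlap those of the ribosomal protein gene Rps18 on the same strand, which had a nearly equal mean signal of 175 against 176 and a change of -1.01 ± 0.24 in the authors' deposited table, so the signal of the pair is uncertain. C1galt1, which makes core 1, had 200 in crypt and 154 in villus, with -0.37 ± 0.10 (adjusted p = 0.00120) in the authors' deposited table.

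Of the other 32 genes, some were measured closely enough to bound a change. Galnt10, one of the enzymes that start O-glycans, had a log2 fold change of -0.06 ± 0.06 in the authors' deposited table, and its 95% interval ran from -0.17 to 0.05. Mgat5, which opens the longest N-glycan branch and had the highest mean signal, had -0.08 ± 0.06 in the authors' deposited table with an interval from -0.20 to 0.05. For Gcnt2, which makes branched I antigen, the interval ran from -0.18 to 0.15. The windows of Galnt10 overlap 4933424L21Rik and those of Gcnt2 overlap A730081D07Rik, both on the opposite strand, so the source of their signal is uncertain. Both Alg enzymes, the mannosyltransferases Alg11 and Alg12, lay just outside the threshold with adjusted p-values of 0.0567 and 0.0526 in the authors' deposited table, and their changes were -0.29 ± 0.13 and -0.32 ± 0.14. Intervals were wide at genes of low signal, such as B3gnt8 with 0.25 ± 0.31 and the dermatan sulfotransferase Chst14 with 0.32 ± 0.26 in the authors' deposited table.

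Between the genotypes, a comparison made to find HNF4-dependent Pol II recruitment, about as many of the genes were called as among all genes, and they split in both directions. The authors' deposited table called 20 of the 41 genes (48.8%), beside 51.9% of all genes. Of these, 9 had more signal in WT villus, a direction in which 22.4% of all genes were called, and 11 had more in DKO-labelled villus, where 29.5% were. The median log2 fold change was -0.11 over the 41 genes and -0.08 over all genes, and the median absolute change was 0.39 beside 0.31. With a log2 change beyond 1 required, 3 genes were called, St3gal4, Mgat3 and Gcnt3, beside 8.69% of all genes. Every enzyme family with 3 or more genes had called genes on both sides: 1 up and 1 down among sialyltransferases, Gcnt and Mgat enzymes, 2 and 2 among B3g enzymes, 3 higher in WT and 2 higher in DKO-labelled villus among B4gal enzymes, and 1 and 2 among Galnt enzymes. These counts are small, were not tested against the shares of all genes and are not read as a trait of the families.

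**Figure D2:**
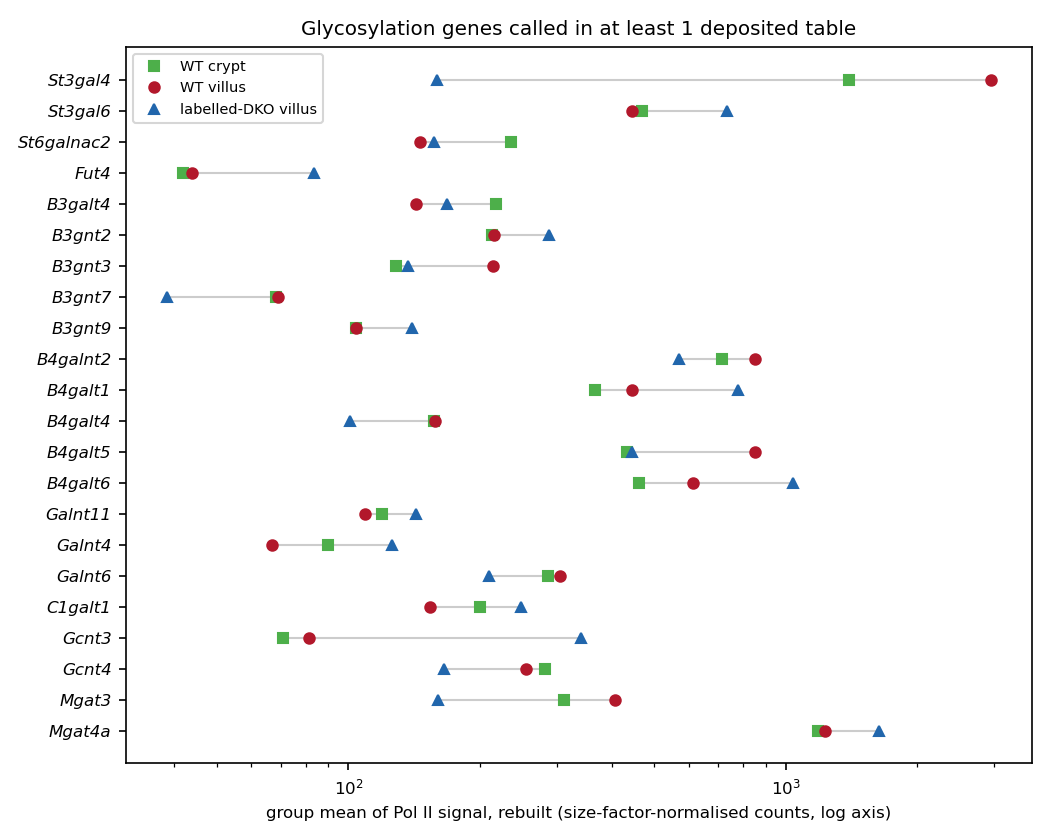
Rebuilt group means of Pol II signal on a log axis for the 22 genes called in at least 1 deposited table, with WT crypt as squares, WT villus as circles and DKO-labelled villus as triangles; grey lines join the lowest and highest mean of a gene. The widest spans are those of St3gal4, from 159 to 2945, and of Gcnt3, from 70.8 to 341.

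The sialyltransferases carried the largest change. St3gal4 had a rebuilt mean of 2945 in WT villus and 159 in DKO-labelled villus, which lies below its crypt mean of 1394. The authors' deposited table gave a WT over DKO-labelled log2 fold change of 4.21 ± 0.10, an 18.5-fold higher signal in WT, with a DESeq2 adjusted p listed at 0. The enterocyte markers given above were lower in the same villi, and their part in this change was not tested. St3gal4 lay at chr9:34853661-34924799 on the minus strand, and its windows overlapped 4930581F22Rik on the opposite strand, which had a mean signal of 103 against 1500 for St3gal4 and a change of 0.90 ± 0.11 in the authors' deposited table. St3gal6, which makes the same linkage, moved the other way, from 446 in WT to 735 in DKO-labelled villus, with -0.72 ± 0.07 (adjusted p = 2.55e-25) in the authors' deposited table. Its windows overlapped Dcbld2 on the opposite strand. St6galnac2 was not called, at -0.11 ± 0.09 in the authors' deposited table with a 95% interval from -0.29 to 0.08.

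Of the 2 fucosyltransferases Fut4, which adds the fucose of Lewis x, was called. Its signal was low, with rebuilt means of 43.8 in WT villus, 41.9 in crypt and 83.7 in DKO-labelled villus, and a change of -0.93 ± 0.23 with adjusted p = 1.77e-04 in the authors' deposited table. WT villus and crypt lay close together and DKO-labelled villus stood above both. Fut11 had a change of 0.17 ± 0.16 in the authors' deposited table and was not called.

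Enzymes that start, extend and branch mucin-type O-glycans were called in both directions. Among the 4 Galnt enzymes, Galnt4 rose from 67 in WT to 126 in DKO-labelled villus, with a log2 fold change of -0.91 ± 0.19 (adjusted p = 9.70e-06) in the authors' deposited table. Galnt11 rose from 109 to 143, with -0.39 ± 0.09 in the authors' deposited table. Galnt6 fell from 304 to 210, with 0.54 ± 0.14 (adjusted p = 3.72e-04) in the authors' deposited table. Galnt10 had rebuilt means of 836 and 838, and its 95% interval for the log2 fold change ran from -0.11 to 0.11. Its windows overlap 4933424L21Rik on the opposite strand. Galnt4 shares its locus and strand with Poc1b, so the source of its signal is uncertain.

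C1galt1, the next enzyme of that path, rose from 154 in WT to 248 in DKO-labelled villus, with a change of -0.69 ± 0.10 (adjusted p = 3.74e-11) in the authors' deposited table. Gcnt3, the branching enzyme known from mucin-secreting tissues, had the largest rise of the 41 genes. Its rebuilt mean was 81.3 in WT villus, 70.8 in WT crypt and 341 in DKO-labelled villus, and the authors' deposited table gave -2.07 ± 0.23 with adjusted p = 9.47e-18, so DKO-labelled villus was 4.20-fold higher. Gcnt3 lay at chr9:69878803-69886245 on the minus strand, and no other gene's windows overlapped it. Gcnt4, another core 2 enzyme, went the other way, from 255 in WT to 166 in DKO-labelled villus, with 0.62 ± 0.21 (adjusted p = 0.00721) in the authors' deposited table. Gcnt2 and Gcnt7 were not called, at -0.12 ± 0.08 and -0.13 ± 0.14 in the authors' deposited table.

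Markers of goblet and Paneth cells were read beside these values, since those cells secrete mucins and antimicrobial proteins. Of 13 marker genes 9 were in the tables, and the authors' deposited table called 3 of them higher in DKO-labelled villus, Agr2 at -1.06 ± 0.13, Spink4 at -0.81 ± 0.10 and Clca1 at -0.52 ± 0.12, and none higher in WT villus, beside 29.5% and 22.4% of all genes called in these directions. Muc2, the main secreted mucin, had a change of 0.15 ± 0.17 and Fcgbp one of -0.07 ± 0.13 in the authors' deposited table, and neither was called. The summed rebuilt signal of the 9 genes was 3350 in WT villus, 2143 in crypt and 3659 in DKO-labelled villus, and the median change between genotypes was -0.07. None of the 9 genes differed between the genotypes by as much as Gcnt3, and the part of cell makeup in its change was not tested.

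Among the B3g enzymes, 2 were called higher in WT and 2 higher in DKO-labelled villus. B3gnt3 fell from 214 in WT to 137 in DKO-labelled villus, near its crypt mean of 129, with a log2 fold change of 0.64 ± 0.14 (adjusted p = 2.28e-05) in the authors' deposited table. B3gnt7, which lengthens keratan sulfate-like chains, fell from 69 to 38.6, with 0.84 ± 0.21 in the authors' deposited table. The antisense gene Gm28626 overlaps B3gnt7 and had nearly the same mean signal, 58.9 against 58.7, and a change of 1.03 ± 0.22 in the authors' deposited table, so the signal of these 2 genes is uncertain. B3gnt2, the main polylactosamine synthase, rose from 216 to 287, with -0.41 ± 0.12 (adjusted p = 0.00135) in the authors' deposited table. B3gnt9 rose from 104 to 140, with -0.42 ± 0.16 (adjusted p = 0.0213) in the authors' deposited table, and it was no longer called once fold changes were centred on the median of all genes, at -0.34. Its windows overlap D230025D16Rik on the opposite strand. The proteoglycan linker enzymes B3galt6 and B3gat3 and the N-glycan enzyme B3gnt8 were not called, nor was B3galt4.

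The B4gal enzymes held the pair of lactosylceramide synthases, whose genes moved apart. B4galt5 fell from 852 in WT to 444 in DKO-labelled villus, close to its crypt mean of 434, with a log2 fold change of 0.94 ± 0.12 (adjusted p = 5.89e-13) in the authors' deposited table. B4galt6 rose from 615 to 1042, with -0.76 ± 0.07 (adjusted p = 9.52e-24) in the authors' deposited table, although it was also higher in WT villus than in crypt. B4galt5 lay at chr2:167123445-167175028 on the minus strand, 3.73 Mb from the targeted gene Hnf4a. B4galt4 fell from 158 to 101, with 0.64 ± 0.11 and adjusted p = 7.92e-08, and B4galnt2 fell from 850 to 571, with 0.57 ± 0.08 (adjusted p = 3.64e-12) in the authors' deposited table. B4galt1, which adds galactose to many N-glycans, rose from 445 to 780, with -0.81 ± 0.31 (adjusted p = 0.0181) in the authors' deposited table. Its SE was over 4 times that of B4galt6 at a comparable mean signal, 530 against 706, and it was not called with an adjusted p under 0.01. Its windows overlap the microRNA gene Mir5123 on the same strand. The ganglioside enzyme B4galnt1, the LacdiNAc enzymes B4galnt3 and B4galnt4, B4galt3 and the linker enzyme B4galt7 were not called.

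**Figure D3:**
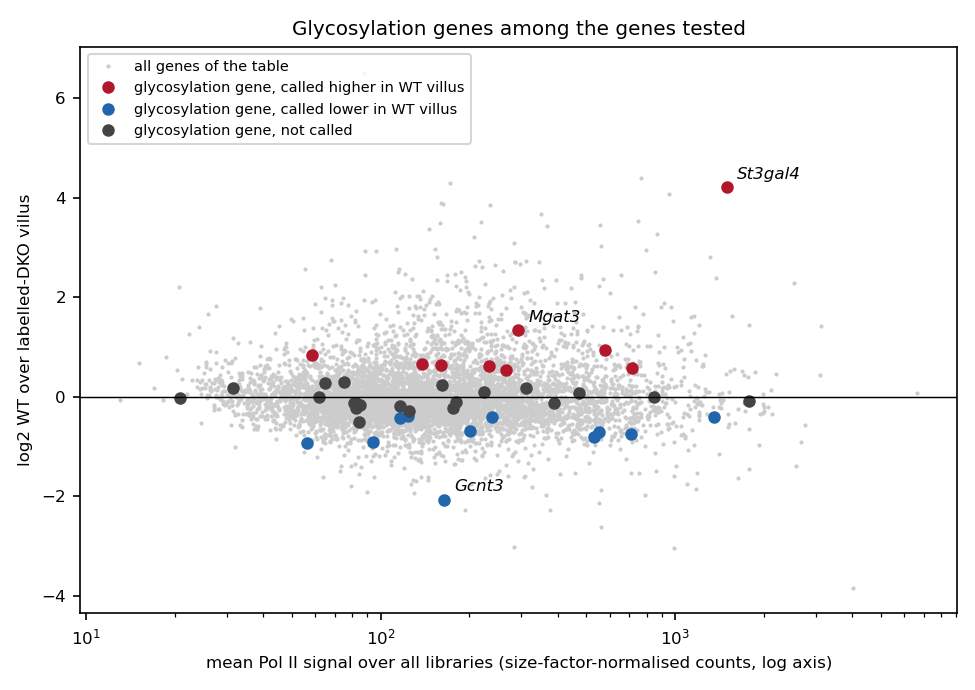
WT over DKO-labelled log2 fold change against the mean Pol II signal on a log axis, with all 6429 genes as small grey points and the 41 glycosylation genes as large points coloured by call. St3gal4 lies at 4.21 among genes of high signal, Mgat3 at 1.34 and Gcnt3 at -2.07, and the other 38 genes lie within 1 of zero.

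In the N-glycan branching family, Mgat3 had the second largest fall of the 41 genes. Its rebuilt mean was 407 in WT villus, 312 in crypt and 161 in DKO-labelled villus, with a WT over DKO-labelled log2 fold change of 1.34 ± 0.14 (adjusted p = 9.67e-21) in the authors' deposited table. Mgat4a, which adds an outer branch, rose from 1232 to 1637, with -0.41 ± 0.14 (adjusted p = 0.00800) in the authors' deposited table. Its windows overlap those of 4930594C11Rik on the same strand, which had a mean signal of 129 and a change of -0.52 ± 0.24 in the authors' deposited table, so how reads were split between this pair is uncertain. Mgat4b, its close relative, had a change of -0.51 ± 0.23 with adjusted p = 0.0516 in the authors' deposited table and was not called. Mgat1 and Mgat2, which start the complex branches, had 0.22 ± 0.12 and 0.27 ± 0.21, and Mgat5 had -0.08 ± 0.06 in the authors' deposited table with a 95% interval from -0.21 to 0.05. Chst14 at 0.18 ± 0.24 and the Alg enzymes, at -0.16 ± 0.13 for Alg11 and -0.20 ± 0.14 for Alg12, were not called in the authors' deposited table.

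A further comparison, of DKO-labelled villus with WT crypt, was obtained by subtracting one deposited log2 fold change from the other, with the SE at its upper bound. It shares its libraries with both other comparisons and is given to place the DKO-labelled villi against crypt. It called 10 of the 41 genes, beside 13.6% of all genes, by a Wald test with Benjamini-Hochberg adjustment over all genes. Of these, 4 had more signal in DKO-labelled villus, where 6.41% of all genes were called, and 6 had more in crypt, where 7.19% were. With the shared WT villus error removed from the SE, 19 of the 41 genes and 29.9% of all genes were called.

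The 4 genes above crypt in DKO-labelled villus were Gcnt3 at a log2 difference of 2.27 ± 0.33 (Wald adjusted p 9.67e-10), B4galt6 at 1.18 ± 0.10, Fut4 at 1.00 ± 0.33 and St3gal6 at 0.65 ± 0.10. The 6 genes below crypt were St3gal4 at -3.13 ± 0.15 (Wald adjusted p 2.69e-99), Mgat3 at -0.96 ± 0.19, B3gnt7 at -0.83 ± 0.30, B4galt4 at -0.63 ± 0.16, St6galnac2 at -0.59 ± 0.13 and B4galnt2 at -0.32 ± 0.11. Pol II at St3gal4, Mgat3 and B4galnt2 was thus called higher in WT villus than in crypt and lower in DKO-labelled villus than in crypt. For B4galt5 the difference from crypt was 0.03 ± 0.18 with a 95% interval from -0.31 to 0.38, and for B3gnt3 it was 0.09 ± 0.20 with an interval from -0.30 to 0.48. A p-value that misses the threshold does not show that these genes had the same level in both tissues.

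Side by side, 7 of the 41 genes were called in both deposited tables, 13 between the genotypes alone, 2 between villus and crypt alone and 19 (46.3%) in neither, beside 39.4% of all genes in neither. Of all genes, 51.9% were called between the genotypes and 37.4% between villus and crypt. The shares of all genes called in both tables or in a single table were not computed, so the split is only a description. The 2 tables share the WT villus libraries, so these counts describe the tables and are not independent. Of the 7 genes, St3gal4, B4galt5, B3gnt3, Mgat3 and B4galnt2 were higher in WT villus in both authors' deposited tables, C1galt1 was lower in WT villus in both, and B4galt6 was higher in WT villus than crypt and lower than in DKO-labelled villus. St6galnac2 and B3galt4 were called between villus and crypt alone. The genes called between the genotypes alone included Gcnt3, whose change of villus over crypt was 0.20 ± 0.24, and St3gal6, whose change was -0.07 ± 0.07, in the authors' deposited table.

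Other genes of glycan synthesis were read from lists chosen by function, of donor sugars, their transport, oligosaccharide transfer, mucins and further transferases. Of the 145 listed genes 74 were in the tables. The authors' deposited table called 35 of the 74 (47.3%, beside 37.4% of all genes) between villus and crypt, with 19 higher in villus and 16 higher in crypt and a median log2 fold change of 0.00. Between the genotypes it called 40 (54.1%, beside 51.9% of all genes), with 17 higher in WT and 23 higher in DKO-labelled villus and a median of -0.06. The counts of single lists below stand beside 18.6% of all genes called higher in villus and 18.8% called higher in crypt. By genotype they stand beside 22.4% called higher in WT and 29.5% called higher in DKO-labelled villus. No count of a list was tested against these shares.

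**Figure D4:**
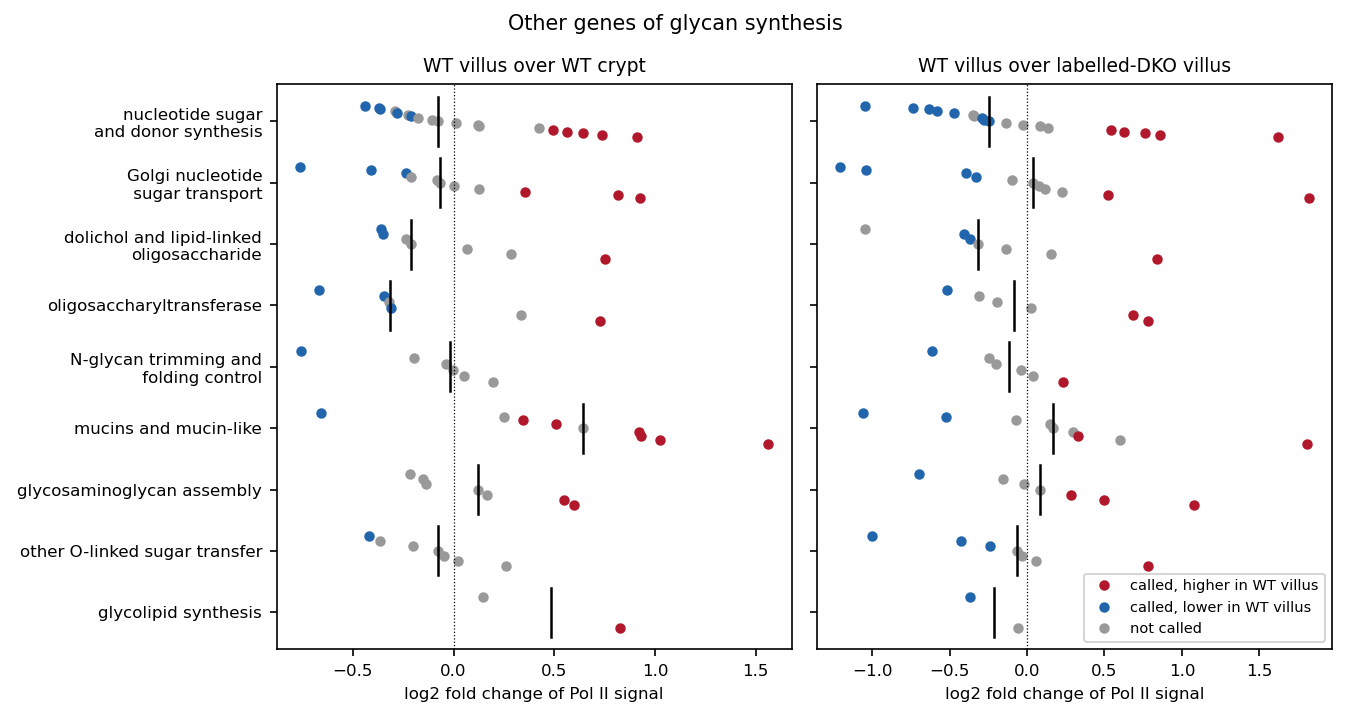
Log2 fold changes of the 74 other genes of glycan synthesis in 9 lists, with WT villus over crypt on the left and WT over DKO-labelled villus on the right, red and blue for genes called higher and lower in WT villus, grey for genes not called and a black bar at the median of each list. The mucin list has the highest median on the left, at 0.64, and every list but that of glycolipid synthesis has called genes on both sides on the right.

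Genes of donor synthesis make the activated sugars that the transferases use. Of 19 in the tables, 5 were called higher in villus and 5 higher in crypt, and by genotype 5 were called higher in WT and 8 higher in DKO-labelled villus. Gfpt1, which starts the hexosamine path to UDP-GlcNAc, had -1.04 ± 0.08 and Nans, which makes sialic acid, had -0.74 ± 0.14 for WT over DKO-labelled villus in the authors' deposited table. Papss2, which makes the sulfate donor, had 1.62 ± 0.17 and Ugdh, which makes UDP-glucuronic acid, had 0.86 ± 0.08 in the authors' deposited table. Between villus and crypt the largest changes were at Papss2, 0.91 ± 0.17, and Uap1l1, 0.74 ± 0.12, toward villus, and at Gnpnat1, -0.44 ± 0.11, and Ugp2, -0.37 ± 0.11, toward crypt, in the authors' deposited table.

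Of 11 genes that carry donors or sulfate across membranes, 2 were called higher in WT and 4 higher in DKO-labelled villus. Slc35c1, the GDP-fucose transporter, had -1.20 ± 0.13 and Slc35b2, a transporter of the sulfate donor, had -1.04 ± 0.17, while Slc35c2 had 1.82 ± 0.13 and Slc35b1 had 0.52 ± 0.13 in the authors' deposited table. Along the axis 3 were called higher in villus and 3 higher in crypt, with Slc35c2 at 0.93 ± 0.13 and the sulfate transporter Slc26a2 at 0.82 ± 0.10 against Slc35b2 at -0.76 ± 0.17 and Slc35a3 at -0.41 ± 0.11 in the authors' deposited table. Among 7 dolichol path genes, Dpm1 and Nus1 were called lower in WT villus in both comparisons and Dolpp1 was called higher in both. The genotype values were -0.37 ± 0.10, -0.41 ± 0.10 and 0.84 ± 0.15 in the authors' deposited table.

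The oligosaccharyltransferase moves the finished oligosaccharide onto proteins. Of its 6 genes in the tables, the catalytic subunit Stt3b had -0.67 ± 0.10 for villus over crypt and -0.52 ± 0.10 for WT over DKO-labelled villus, and Ost4 had 0.73 ± 0.20 and 0.78 ± 0.20, in the authors' deposited tables. Ddost was called between the genotypes alone, at 0.69 ± 0.15, and Dad1 and Ostc between villus and crypt alone, at -0.35 ± 0.08 and -0.31 ± 0.13, in the authors' deposited tables. Of 6 genes of trimming and folding control, Canx, the lectin chaperone calnexin, had -0.76 ± 0.17 and -0.61 ± 0.17, and Edem1 was called between the genotypes at 0.23 ± 0.09, in the authors' deposited tables.

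Mucins and their partners are the main carriers of O-glycans. Of 9 in the tables, 6 were called higher in villus and 1, Agr2, higher in crypt, beside 18.6% and 18.8% of all genes. Muc3, a membrane mucin of the brush border, had 1.56 ± 0.47 and Zg16, a goblet cell lectin, had 1.03 ± 0.17 for villus over crypt in the authors' deposited table, and Agr2 had -0.66 ± 0.13. By genotype, 2 were called higher in WT villus and 2 higher in DKO-labelled villus. Muc13, a membrane mucin, had 1.81 ± 0.29 and Muc6 had 0.33 ± 0.12, against Agr2 at -1.06 ± 0.13 and Clca1 at -0.52 ± 0.12, in the authors' deposited table. Muc2 was higher in villus than crypt, at 0.93 ± 0.17, in the authors' deposited table.

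Of 7 glycosaminoglycan genes, 3 were called higher in WT and 1 higher in DKO-labelled villus, with Extl1 at 1.08 ± 0.10 and Ndst1 at 0.50 ± 0.10 against Hs6st1 at -0.70 ± 0.20 in the authors' deposited table. Along the axis Sulf2 at 0.60 ± 0.10 and Extl1 at 0.55 ± 0.10 were called higher in villus in the authors' deposited table. Of 7 genes of other O-linked sugars, Rfng, a Notch-modifying Fringe enzyme, was called higher in WT villus at 0.78 ± 0.17, and Pomgnt1 at -1.0 ± 0.22, Oga at -0.43 ± 0.09 and Pomt1 at -0.24 ± 0.09 were called higher in DKO-labelled villus in the authors' deposited table. Pomt1, an O-mannosyltransferase, was the gene of this list called along the axis, at -0.42 ± 0.10 in the authors' deposited table. Ugcg, which makes glucosylceramide, the acceptor of B4galt5 and B4galt6, was higher in villus than crypt at 0.82 ± 0.20 and was not called between the genotypes, at -0.06 ± 0.20, in the authors' deposited tables. Gba2, which breaks glucosylceramide down, was called higher in DKO-labelled villus at -0.37 ± 0.12 in the authors' deposited table.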

How the data were processed

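Pol II ChIP-seq of 9 libraries and 3 inputs was processed in mm9 with Bowtie2 2.2.6, featureCounts and DESeq2 1.36.0, per the submitters' processing notes, which give no order or settings. Windows were counted with featureCounts 2.0.3 on read pairs (minimum mapping quality 30), with no option for strand, per the file headers. The lengths and positions of 44308 promoter and 41048 gene body windows, named by RefSeq transcript, were taken from the deposited tables; their 18 columns of counts name no library and were used in no step.

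All tests rest on 2 deposited DESeq2 tables, in which the authors give for each gene a mean signal over libraries, a log2 fold change with its standard error, the Wald score (their ratio), and raw and adjusted p-values. The window, the gene filter and the libraries in the authors' fit are not stated. Mean signals were identical in both tables, so the fits share libraries. Wald scores equalled the log2 fold change over its standard error to within 1.78e-07. Signs follow the tables' names and were checked from the standard errors: a non-negative least squares fit of the difference of squared standard errors on the inverse rebuilt group means explained 90.1% of the squares with signs as named, 51.6% with the first reversed, 0% with the second reversed and 1.54% with both reversed.

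Group means, the comparison of DKO-labelled villus with crypt, 95% intervals (normal) and alternatives were computed in Python 3.11.15 with scipy 1.17.1. Overlaps were taken between the spans of the windows of different symbols. Named are the called genes of each comparison, the gene of highest mean signal in each enzyme family, and in each list up to 2 called genes a direction with the largest changes; the rest were named after their values were seen. The genes and lists were chosen with earlier results of these data known.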

Additional observations from a re-analysis of the deposited data

How the results depend on the processing

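The counts of called genes moved mainly with the size of change required, which lets fewer genes pass. As reported, 9 of the 41 genes were called for villus against crypt, 20 by genotype and 10 for DKO-labelled villus against crypt. When the log2 change also had to exceed 1, these became 1, 3 and 3 genes, beside 4.43%, 8.69% and 3.47% of all genes. When the Wald test asked for a change above 0.5, they became 2, 6 and 3, beside 3.92%, 9.91% and 1.4% of all genes. Removing genes that overlap another gene left 25 of the 41, so fewer could be called. The counts were then 7, 13 and 7, beside 39.3%, 54.5% and 17.4% of all genes kept. St3gal4 and St3gal6 were among the genes left out, so this setting did not check their calls. For DKO-labelled villus against crypt, removing the shared error from the standard error gave 19, beside 29.9% of all genes. An adjusted p under 0.01 called 7, 18 and 7 genes, beside 27%, 40.9% and 8.68% of all genes. Centring on the median of all genes called 10, 20 and 10, beside 35.9%, 48.7% and 13.7%. A mean signal of at least 100 called 10, 17 and 10 of 28 genes kept, beside 47%, 61.6% and 18.9% of all genes kept. Under these settings each count stayed within 1.5 times that reported. An adjusted p under 0.01 and either limit of size can only call genes called before, so their match with the earlier calls was fixed. Removing the shared error could only keep calls. After the removal of overlaps all genes called were among those called before, and centring kept 9, 19 and 10 of the genes called before. For single called genes, all settings together kept the call in 159 cases and lost it in 68, a tally that includes these fixed outcomes. Apart from centring, the settings leave the log2 fold change as deposited and so could turn no direction. No paired analysis was possible because both comparison tables hold 1 summary a gene and no value of a library. Fits that leave out a replicate were not run, and the weight of any 1 library in these results is unknown. Counting noise limits the genes of low signal.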
